A study of Mus musculus with 8 samples.

Results

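The aryl hydrocarbon receptor (AHR) pathway was followed in liver through 8 genes chosen by symbol: the receptor Ahr, its partner Arnt, the repressors Ahrr and Tiparp, and the enzymes Cyp1a1, Cyp1a2, Cyp1b1 and Aldh3a1. All 8 were among the 48432 genes listed, each under 1 Ensembl identifier and with a valid estimate in every library. The RNA came from wild-type C57BL/6 mice after 30 weeks of exposure in 1 of 4 settings. The lighting was a day/night cycle (LD, light/dark) or unbroken light (LL), and the air was filtered (FA) or carried fine particles (PM2.5). The 4 groups are named LL-FA, LL-PM2.5, LD-FA and LD-PM2.5, and each has 2 libraries. Whether the 2 libraries of a group are different animals is not stated in the sources used here, and p-values may therefore not measure spread between animals. Counts of the 2 libraries differed by more than counting error, with a chi-square per degree of freedom from 41.8 in LL-FA to 89.2 in LL-PM2.5. The source of that spread was not tested. Sex, age, time of day and the particles' chemical make-up are likewise not given in those sources.

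AHR is a transcription factor that waits in the cytoplasm with HSP90 and other chaperones until it binds a ligand, such as a polycyclic aromatic hydrocarbon carried on combustion particles. It then enters the nucleus, pairs with ARNT and binds DNA at sites built around the letters GCGTG. CYP1 enzymes, which oxidise such ligands, are its best known targets, and CYP1A1 induction is the usual readout of AHR activity in liver. AHRR and TIPARP are themselves induced by the receptor and then restrain it. Many combustion particles carry AHR ligands, so the comparison of PM2.5 with filtered air can be read for this pattern.

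The promoter windows of 4 of the genes are shown because they set the letters that AHR and ARNT recognise beside the levels measured below. They run from 250 bases before to 50 bases after a RefSeq transcription start on GRCm38.p6 and read 5′ to 3′ along the gene, with every GCGTG, or its reverse complement CACGC, in capitals. Ahrr lies at chr13:74292282-74292581 (minus strand), Tiparp at chr3:65528197-65528496 (plus), Cyp1a1 at chr9:57697363-57697662 (plus) and Cyp1a2 at chr9:57683606-57683905 (minus).
Ahrr: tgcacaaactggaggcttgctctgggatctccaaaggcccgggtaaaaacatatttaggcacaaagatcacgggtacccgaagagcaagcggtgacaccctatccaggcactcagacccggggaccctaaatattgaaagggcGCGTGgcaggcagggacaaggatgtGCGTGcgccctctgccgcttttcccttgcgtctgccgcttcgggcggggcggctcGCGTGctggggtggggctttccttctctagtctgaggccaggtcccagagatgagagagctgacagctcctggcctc
Tiparp: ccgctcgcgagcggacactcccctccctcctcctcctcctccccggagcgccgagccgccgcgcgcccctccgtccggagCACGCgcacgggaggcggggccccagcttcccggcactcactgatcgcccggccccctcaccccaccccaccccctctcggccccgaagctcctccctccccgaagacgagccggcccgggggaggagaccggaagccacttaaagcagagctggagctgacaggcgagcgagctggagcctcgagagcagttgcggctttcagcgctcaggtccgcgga
Cyp1a1: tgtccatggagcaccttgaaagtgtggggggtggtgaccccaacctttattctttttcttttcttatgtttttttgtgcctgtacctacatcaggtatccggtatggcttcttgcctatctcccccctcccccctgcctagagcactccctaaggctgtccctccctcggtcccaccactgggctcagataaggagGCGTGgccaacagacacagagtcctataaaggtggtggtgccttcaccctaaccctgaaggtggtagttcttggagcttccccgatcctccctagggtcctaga
Cyp1a2: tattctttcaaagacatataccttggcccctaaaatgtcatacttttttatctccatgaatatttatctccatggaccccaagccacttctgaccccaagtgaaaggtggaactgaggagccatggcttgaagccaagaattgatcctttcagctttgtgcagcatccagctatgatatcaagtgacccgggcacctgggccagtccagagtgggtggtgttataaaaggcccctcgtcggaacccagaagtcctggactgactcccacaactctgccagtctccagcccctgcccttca
The start used for Cyp1a1 lies inside the gene span that GENCODE gives, so this window is that of a downstream start. The Ahrr window held 3 copies whose first bases lie at -107, -82 and -27 from the start, while Tiparp had 1 at -170 and Cyp1a1 had 1 at -54. The Cyp1a2 window held 0. Promoters of 6 of the 8 genes were in the table, and 5 of the 6 had at least 1 copy, Cyp1b1 and Arnt with 1 each. Of all 32851 promoters of this length, 32.4% held at least 1 copy and 3.9% held 3 or more. A match describes letters only and does not show binding. Side by side with the levels below, Ahrr with 3 copies had the lowest mean of the 8 genes and Cyp1a2 with 0 the highest. The genes with 1 copy lay between, Arnt at 6.84 FPKM, Tiparp at 1.41, Cyp1a1 at 0.333 and Cyp1b1 at 0.196. A relation of copies to level was not tested, and sites outside these windows were not searched.

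All 8 genes code for protein. On GRCm38 in the GENCODE vM21 annotation, Ahr spans chromosome 12, 35497974 to 35535038, and Arnt chromosome 3, 95434388 to 95497240. Tiparp lies on the same chromosome 3 at 65528410 to 65555518, Ahrr on chromosome 13 at 74211118 to 74292331, Cyp1b1 on chromosome 17 at 79701537 to 79715061 and Aldh3a1 on chromosome 11 at 61207537 to 61218421. Cyp1a2 (57676937 to 57683703) and Cyp1a1 (57687928 to 57703824) are neighbours on chromosome 9, in opposite orientation and 4224 bases apart.

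Depth and tissue bear on every value below. Libraries held about 22215000 to 31819000 fragments. Hepatocyte markers were abundant throughout, with 7 measured genes summing to 26190 to 38460 FPKM (fragments scaled to transcript length and to library depth). Transcripts of other organs were present in some libraries. Summed over 7 pancreas markers, LD-FA replicate 1 held 3246 FPKM, against 320.2 in LL-PM2.5 replicate 2 and 116.5 in LD-PM2.5 replicate 1, with 17.8 to 34.7 elsewhere. The 6 muscle markers summed to 448.0 FPKM in LL-FA replicate 1, to 238.1 and 25.6 for the first and second LD-FA library, and to at most 1.18 elsewhere. The clock-driven gene Dbp stood at 2.77 and 2.05 FPKM under LD-FA, 9.12 and 12.99 under LD-PM2.5, 3.86 and 9.08 under LL-FA and 32.9 and 54.0 under LL-PM2.5. PM2.5 libraries were higher in both regimes, with an edgeR adjusted p of 0.0672 for the average over light. In FPKM, 24.6% of the genes tested below were higher without overlap in light/dark, and 9.65% in constant light. The part of these differences in the values below was not tested.

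The 8 genes spanned more than 4 orders of magnitude in FPKM, a scale that allows levels of different genes to be compared per length. Cyp1a2 averaged 306.2 ± 74.6 FPKM (SD, n = 8) and ranked 229 among 23056 genes with any signal. Ahr at 7.24 ± 2.14 and Arnt at 6.84 ± 1.88 followed, with ranges that overlap. Tiparp averaged 1.41 ± 0.333, Cyp1a1 0.333 ± 0.136, Cyp1b1 0.196 ± 0.0666, Aldh3a1 0.0264 ± 0.0220 and Ahrr 0.0198 ± 0.00658. The ranges of Cyp1a1 and Cyp1b1 overlapped, as did those of Aldh3a1 and Ahrr, while each of the other steps in this order was free of overlap. Thus receptor and partner were expressed at similar moderate levels, 1 target stood among the most abundant liver transcripts, and 4 targets stayed under 1 FPKM in every library.

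**Figure D1:**
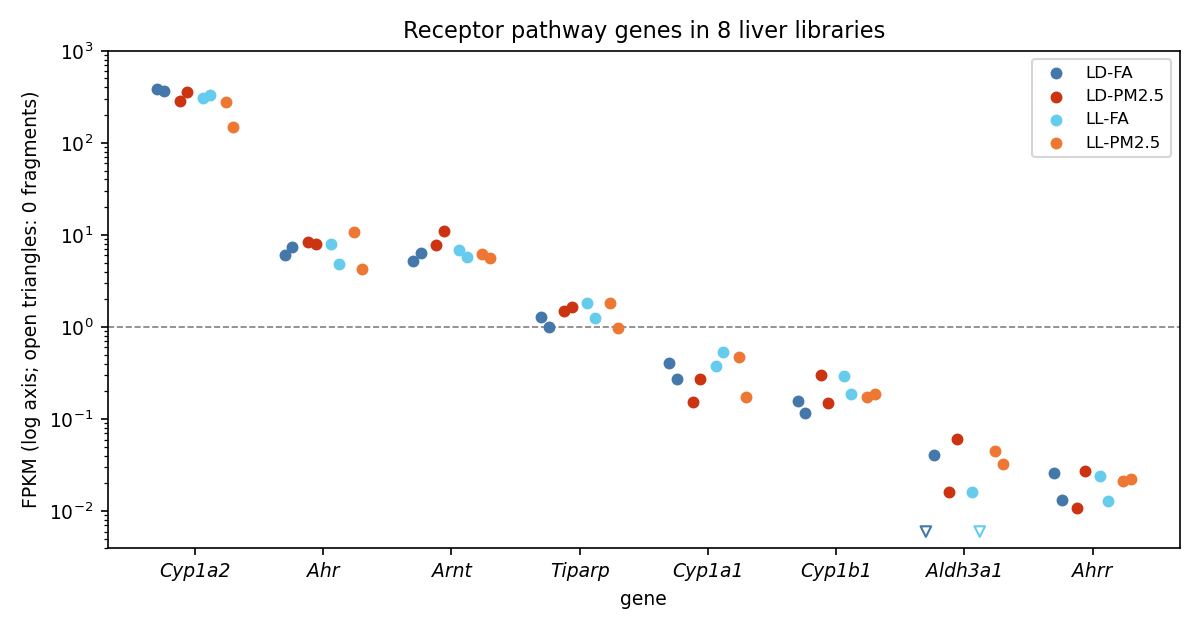
FPKM of each of the 8 genes on a log axis, with 1 point per library coloured by group, open triangles for libraries with 0 fragments and a dashed line at 1 FPKM. Cyp1a2 sits between 148.2 and 387.6 FPKM, and Cyp1a1, Cyp1b1, Aldh3a1 and Ahrr lie below the line in all 8 libraries.

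A gene was tested where 2 or more libraries reached 1 FPKM, which left 11316 genes. Of the 8 pathway genes 4 passed this filter (Ahr, Arnt, Tiparp and Cyp1a2) and 4 did not. None of the 4 was called by the edgeR quasi-likelihood test (Benjamini-Hochberg adjusted p under 0.05, across the tested genes), in any of 6 comparisons. In light/dark, 0% of all tested genes were called for PM2.5, and the smallest adjusted p among the 4 genes was 0.438. At an unadjusted p under 0.05 stood 1 of the 4 genes, against 11.0% of all tested genes. DESeq2 called 0 of the 4 (1.33% of all genes), with 1 at an unadjusted p under 0.05 (10.5%). For PM2.5 in constant light the share called was again 0%, with a smallest adjusted p of 0.989 and 0 of 4 genes at an unadjusted p under 0.05 (4.83% of all). DESeq2 called 0 there (0.513% of all genes) and had 1 at an unadjusted p under 0.05 (4.99%). Averaged over both light regimes, 0 of the 4 were called while the share over all genes was 0.0177%, 0 had an unadjusted p under 0.05 (10.0% of all). DESeq2 called 0 for the average (1.42% of all genes), with 1 at an unadjusted p under 0.05 (9.69%). The median log2 fold change of the 4 genes was 0.29 in light/dark, -0.11 in constant light and 0.17 for the average, beside -0.01, 0.00 and 0.00 over all tested genes. Fold changes here and below are PM2.5 over filtered air on the fragment counts, with 95% intervals from the test's standard error (SE).

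**Figure D2:**
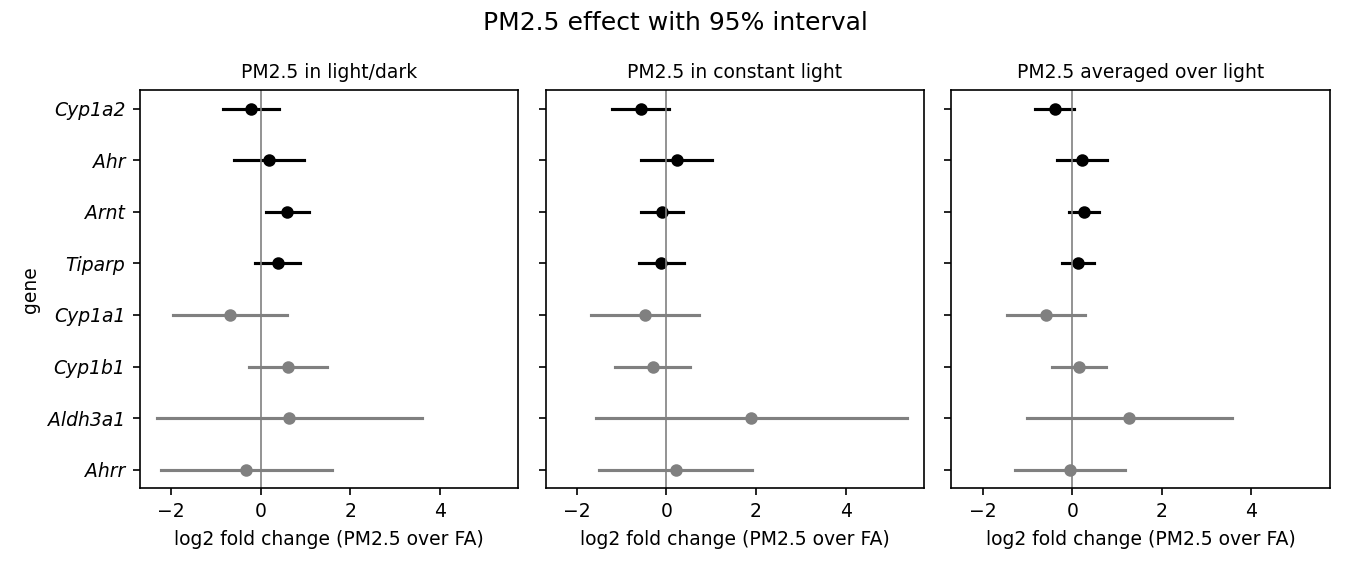
Log2 fold change of PM2.5 over filtered air with its 95% interval, in the light/dark cycle, in constant light and averaged over both. Black marks genes that passed the filter, grey those below it, fitted together with the tested genes. Every interval includes 0 except that of Arnt in the light/dark cycle.

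Ahr, the ligand-binding receptor itself, read 6.10 and 7.47 FPKM under LD-FA, 8.42 and 8.03 under LD-PM2.5, 8.04 and 4.80 under LL-FA and 10.9 and 4.24 under LL-PM2.5. Within light/dark both PM2.5 libraries lay above both filtered-air libraries on this scale. In constant light the 2 PM2.5 libraries held the highest and the lowest value of all 8. In CPM, fragments scaled to library size by trimmed means (TMM) and not to length, Ahr stood at 38.6 and 54.7 under LD-FA and 50.8 and 56.0 under LD-PM2.5, so that the light/dark groups overlapped. The log2 fold change of Ahr was 0.19 ± 0.34 (SE) in light/dark, with an interval from -0.59 to 0.98, and it turned to -0.04 without LD-FA replicate 1. In constant light it was 0.23 ± 0.34 (-0.56 to 1.01), and without LL-PM2.5 replicate 1 it was -0.38. Averaged over light it was 0.21 ± 0.24 (-0.35 to 0.77), and without that same library -0.10. The interval in constant light reached from a fold of 0.678 to 2.02. Changes of the receptor transcript within it are compatible with the values, and it is not a limit of detection.

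Arnt encodes the nuclear partner that AHR shares with the hypoxia factors. It read 5.19 and 6.32 FPKM under LD-FA, 7.70 and 11.1 under LD-PM2.5, 6.90 and 5.69 under LL-FA and 6.24 and 5.63 under LL-PM2.5. The LD-PM2.5 libraries were the 2 highest of the 8, replicate 2 above replicate 1. In TMM-scaled CPM they were also the 2 highest, at 39.2 and 57.7 against 28.4 and 35.4 under LD-FA. The log2 fold change in light/dark was 0.60 ± 0.20 (SE), with an interval from 0.13 to 1.07 and an unadjusted p of 0.0195, which did not pass adjustment (edgeR adjusted p = 0.438). Without LD-PM2.5 replicate 2 it was 0.31. In constant light it was -0.10 ± 0.20 (-0.57 to 0.38). The interaction, the effect in constant light minus that in light/dark, was -0.70 ± 0.29 (-1.37 to -0.03). Arnt was the 1 gene of the 4 with an unadjusted p under 0.05 there (0.0431, edgeR adjusted p = 0.843), where 4.88% of all genes lay under 0.05, and the share called was 0%. DESeq2 called 0 of the 4 for the interaction (0.292% of all genes), with 1 under 0.05 (5.13%). A difference between the light regimes was therefore not established after adjustment.

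Ahrr, the receptor's dedicated repressor, competes for ARNT and is among the most inducible AHR targets in many tissues. It was barely detected, with 24 fragments over all 8 libraries. LD-FA held 3 and 3 fragments, LD-PM2.5 1 and 3, LL-FA 4 and 2, and LL-PM2.5 4 and 4. The 4 PM2.5 libraries and the 4 filtered-air libraries had 12 fragments each, a ratio of rates of 1.01 with an exact 95% interval from 0.41 to 2.46 for counting error only. Any ratio within that range is compatible with these counts, and the range is not a limit of detection.

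Tiparp, a mono-ADP-ribosyltransferase that modifies and restrains AHR, was the 1 negative regulator above the filter. It read 1.27 and 1.01 FPKM under LD-FA, 1.49 and 1.63 under LD-PM2.5, 1.81 and 1.26 under LL-FA and 1.81 and 0.966 under LL-PM2.5. Both LD-PM2.5 libraries lay above both LD-FA libraries, and in constant light the groups overlapped. The log2 fold change was 0.39 ± 0.22 (SE) in light/dark, with an interval from -0.11 to 0.89, and -0.12 ± 0.21 in constant light (-0.62 to 0.39). Averaged over light it was 0.14 ± 0.15 (-0.22 to 0.49), so that the interval ended at a 1.41-fold rise. Without LD-PM2.5 replicate 2 this average was 0.00 and the light/dark value 0.11, and without LD-PM2.5 replicate 1 they were 0.25 and 0.63. The value in constant light became 0.05 when LL-PM2.5 replicate 2 was left out and -0.30 when LL-PM2.5 replicate 1 was.

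Cyp1a1, the enzyme used as the standard sign of AHR activation, was not higher in any PM2.5 group mean than in its filtered-air control. It read 0.407 and 0.271 FPKM under LD-FA, 0.155 and 0.276 under LD-PM2.5, 0.376 and 0.532 under LL-FA and 0.472 and 0.175 under LL-PM2.5. The 2 lowest values of the 8 were both PM2.5 libraries, and within each light regime the groups overlapped in FPKM. In TMM-scaled CPM both LD-PM2.5 libraries (0.537 and 0.95) lay below both LD-FA libraries (1.43 and 0.954), as did 24.8% of tested genes. These levels rest on 15 to 49 fragments per library, 100 over the 4 PM2.5 libraries and 143 over the 4 filtered-air libraries. The ratio of rates was 0.71, with an exact 95% interval from 0.54 to 0.92 that covers counting error alone and not the spread between libraries. The mean was 0.270 ± 0.145 FPKM (SD, n = 4) with PM2.5 and 0.396 ± 0.108 in filtered air, a difference of -0.127 that did not pass a two-sided exact permutation test over the 70 arrangements of 4 against 4 libraries (p = 0.229). The smallest p this test allows is 0.0286, and 4 genes were tested this way. Fitted with the genes above the filter, the log2 fold change averaged over light was -0.59 ± 0.38 (SE), and its interval from -1.47 to 0.29 ended at a 1.23-fold rise. Within light/dark the interval ended at a 1.498-fold rise and in constant light at a 1.66-fold rise. Cyp1a1 and Cyp1a2 share an identical run of 137 bases, and 3.55% of the 50-base words of the longest Cyp1a1 transcript also occur in Cyp1a2. Since Cyp1a2 stood 588 to 1827 times higher in FPKM, the part of fragments from Cyp1a2 in the Cyp1a1 values cannot be told apart here.

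Cyp1a2, which is constitutively expressed in hepatocytes and metabolises caffeine and aromatic amines, had a lower mean with PM2.5 in both regimes but did not pass the test. It read 387.6 and 361.6 FPKM under LD-FA, 283.5 and 356.3 under LD-PM2.5, 307.1 and 327.9 under LL-FA and 277.2 and 148.2 under LL-PM2.5. The LL-PM2.5 libraries were the 2 lowest of all 8, and replicate 2 held the lowest value. The mean of LL-PM2.5 was 212.7 ± 91.2 (SD, n = 2) against 317.5 ± 14.7 under LL-FA. The log2 fold change was -0.58 ± 0.27 (SE) in constant light, with an interval from -1.21 to 0.05, and -0.21 ± 0.27 in light/dark (-0.84 to 0.41). Averaged over light it was -0.40 ± 0.19 (-0.84 to 0.05, unadjusted p = 0.0737, edgeR adjusted p = 0.521). The upper end of that interval is a 1.035-fold rise. Without LL-PM2.5 replicate 2 the value in constant light was -0.21 and the average -0.21, and without LL-PM2.5 replicate 1 they were -1.08 and -0.65. The light/dark value became -0.07 when LD-PM2.5 replicate 1 was left out and -0.37 when LD-PM2.5 replicate 2 was. The sign stayed negative in each of these. Because these are bulk livers, fewer cells expressing Cyp1a2 and less Cyp1a2 RNA per cell cannot be told apart.

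Cyp1b1, the CYP1 enzyme of non-parenchymal and extrahepatic cells, read 0.155 and 0.118 FPKM under LD-FA, 0.299 and 0.149 under LD-PM2.5, 0.295 and 0.185 under LL-FA and 0.175 and 0.188 under LL-PM2.5. It rests on 21 to 45 fragments per library. The single highest values came from LD-PM2.5 replicate 1 and LL-FA replicate 1, so PM2.5 and filtered air each held 1 of them. The mean was 0.203 ± 0.0662 FPKM (SD, n = 4) with PM2.5 and 0.188 ± 0.0762 in filtered air (two-sided exact permutation p = 0.714). Its fitted log2 fold change averaged over light was 0.15 ± 0.26 (SE), with an interval from -0.45 to 0.75. That average joins 0.61 ± 0.37 in light/dark (-0.25 to 1.47) with -0.31 ± 0.36 in constant light (-1.15 to 0.53), and the interaction of -0.92 ± 0.52 did not pass the test (edgeR adjusted p = 0.843). In TMM-scaled CPM both LD-PM2.5 libraries (1.61 and 0.998) lay above both LD-FA libraries (0.889 and 0.827), as did 24.6% of tested genes. Over 4 against 4 libraries it had 130 and 119 fragments, a ratio of rates of 1.1 with a counting interval from 0.85 to 1.43. The 8 stellate cell and fibroblast markers, none of them at 0, summed to 145.4 and 92.6 FPKM under LD-FA, 131.4 and 108.7 under LD-PM2.5, 151.0 and 99.5 under LL-FA and 130.0 and 111.1 under LL-PM2.5. In 3 of the 4 groups the library higher in Cyp1b1 was also the higher one in these markers, LL-PM2.5 being the exception, and their part in the values was not tested.

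Aldh3a1, an aldehyde dehydrogenase that AHR ligands can switch on strongly in rodent liver, was close to absent, with 13 fragments over all libraries. LD-FA held 0 and 3 fragments, LD-PM2.5 1 and 3, LL-FA 1 and 0, and LL-PM2.5 3 and 2. A count of 0 in a library allows up to 3.69 fragments by the exact Poisson interval. The 4 PM2.5 libraries summed to 9 fragments and the 4 filtered-air libraries to 4, a ratio of rates of 2.27 with an exact counting interval from 0.63 to 10.09. The two-sided exact permutation test of FPKM gave p = 0.143 for Aldh3a1 and p = 0.886 for Ahrr. Both LL-PM2.5 libraries lay above both LL-FA libraries, by 1 to 3 fragments. Of tested genes, 9.65% were higher there without overlap in FPKM and 15.1% in TMM-scaled CPM.

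Constant light was compared with the light/dark cycle in each air for the same genes. In filtered air edgeR called 0 of the 4 genes above the filter (share called 0%, smallest adjusted p 1.0), with 0 at an unadjusted p under 0.05 against 2.74% of all genes. DESeq2 called 0 (0.380% of all genes), with 0 under 0.05 (2.80%). Cyp1a2 was at -0.21 ± 0.27 (SE) and Tiparp at 0.33 ± 0.22. Under PM2.5 edgeR again called 0 of 4 (share called 0%, smallest adjusted p 0.495), and all 4 genes had a negative log2 fold change, with a median of -0.37 beside 0.01 over all genes. Arnt at -0.58 ± 0.20 was the 1 gene with an unadjusted p under 0.05 (0.0227), against 9.23% of all genes, and Cyp1a2 stood at -0.57 ± 0.27. DESeq2 called 0 (1.23% of all genes) and had 2 of the 4 under 0.05 (8.70%). Below the filter, the joined fit for light in filtered air gave Cyp1b1 0.75 ± 0.37, Cyp1a1 0.43 ± 0.52, Ahrr 0.23 ± 0.76 and Aldh3a1 -1.15 ± 1.61. Both LL-FA libraries lay above both LD-FA libraries in Cyp1b1, in FPKM (10.7% of tested genes) and in TMM-scaled CPM (14.3%). Under PM2.5 the value of Cyp1b1 was -0.17 ± 0.36. These comparisons share libraries with those of PM2.5. The LD-PM2.5 values of Arnt enter both, and so do the LL-PM2.5 values of Cyp1a2.

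Groups without overlap were counted on both scales, since with 2 libraries a side many genes separate. For PM2.5 in light/dark, Ahr, Arnt and Tiparp were higher in FPKM (24.6% of all tested genes were) and Cyp1a2 lower (18.7%), while in TMM-scaled CPM Arnt and Tiparp were higher (24.6%) and 0 of the 4 lower (24.8%). For PM2.5 under constant light, Cyp1a2 was lower on both scales (11.6% of tested genes in FPKM and 14.9% in CPM) and Arnt in CPM, and 0 of the 4 were higher (9.65% and 15.1%). With all 4 PM2.5 libraries set against all 4 of filtered air, 0 of the 4 genes separated. Of all tested genes 1.59% were higher and 1.81% lower in FPKM there, and 2.82% and 2.86% in CPM. For light within filtered air, Cyp1a2 was lower on both scales (11.3% and 15.9%), and Tiparp was higher in CPM (14.3%) with 0 of the 4 higher in FPKM (10.7%). For light within PM2.5, Arnt and Cyp1a2 were lower on both scales (18.3% and 20.2%) and 0 of the 4 higher (12.3% and 19.1%). Shares of this size in the background leave a separation of 2 against 2 libraries as a description only.

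Other genes of the pathway were described by list, beside the background shares already given. The receptor complex and its coregulators were listed together with the hypoxia factors Hif1a and Epas1. This list comprised 12 genes, of which 11 were tested and Arnt2 was below the filter. None of the 11 passed the edgeR test or DESeq2 in either PM2.5 comparison. With no filter on low values edgeR called 2 of them in light/dark, Hsp90aa1 and Hsp90ab1. Of 23030 genes that fit called 330 higher and 317 lower in light/dark. It called 140 higher and 336 lower in constant light, and 279 and 417 averaged over light. In light/dark all 11 had a positive log2 fold change, with a median of 0.51 beside -0.01 over all genes, and 6 had an unadjusted p under 0.05. In constant light 4 were positive and 7 negative, with a median of -0.05 beside 0.00, and 0 had an unadjusted p under 0.05. Hsp90aa1, the inducible chaperone that holds unliganded AHR, read 29.7 and 25.9 FPKM under LD-FA, 50.5 and 61.7 under LD-PM2.5, 22.7 and 21.8 under LL-FA and 15.5 and 24.0 under LL-PM2.5. The LD-PM2.5 libraries stood above the other 6. Against LD-FA alone, 24.6% of tested genes were higher in FPKM without overlap. Its log2 fold change in light/dark was 0.996 ± 0.338 (SE), and the constitutive Hsp90ab1 was at 0.72 ± 0.25. Epas1, a hypoxia factor that also uses ARNT, was at 0.51 ± 0.17 and the coactivator Ncoa3 at 0.53 ± 0.20. Each had an edgeR adjusted p of 0.437 or 0.438. Without LD-FA replicate 1 the median of the list in light/dark was 0.34, and without LD-PM2.5 replicate 2 it was 0.44. The median in constant light changed sign with single libraries left out, from -0.05 to 0.02 without LL-FA replicate 1, LL-FA replicate 2 or LL-PM2.5 replicate 1. For constant light under PM2.5, edgeR called 0 of the 11, and DESeq2 called the same 2 chaperones, Hsp90aa1 at -1.43 (DESeq2 adjusted p = 0.000881) and Hsp90ab1 at -0.90 (DESeq2 adjusted p = 0.0182).

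**Figure D3:**
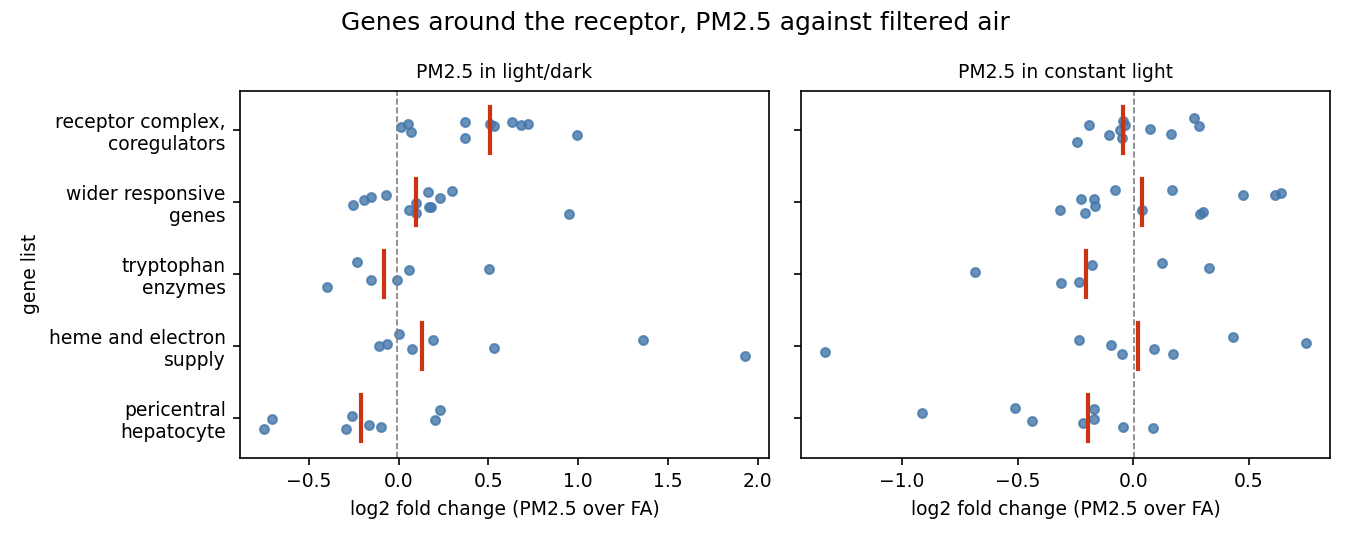
Log2 fold change of PM2.5 over filtered air for each tested gene (points) of 5 lists, with the list median as a red bar and the median of all tested genes as a dashed line. The receptor complex list has a median of 0.51 in the light/dark cycle and -0.05 in constant light.

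The wider set of AHR-responsive genes held 17 genes, 13 of them tested, and none passed edgeR or DESeq2 in either PM2.5 comparison. With no filter edgeR called Cyp2a5 in light/dark (330 genes higher and 317 lower of 23030), and Cyp2a5 and Cdkn1b for the average (279 and 417). Their median log2 fold change was 0.10 in light/dark, with 9 positive and 4 negative, and 0.04 in constant light, with 7 positive and 6 negative. Leaving out LD-PM2.5 replicate 2 turned the first to -0.04, and leaving out LD-PM2.5 replicate 1 gave 0.30. Leaving out LL-PM2.5 replicate 1 turned the second to -0.12, and leaving out LL-PM2.5 replicate 2 gave 0.21. Cdkn1b, a cell cycle inhibitor, had the smallest p for the average over light, at 0.47 ± 0.13 (SE, edgeR adjusted p = 0.407), and stood at 9.02 and 8.43 FPKM under LL-PM2.5, the 2 highest values. Cyp2a5, a coumarin hydroxylase, varied from 164.2 to 570.5 FPKM between the LD-PM2.5 libraries alone. Htatip2 averaged -0.23 ± 0.11 and the purine-oxidising Xdh 0.13 ± 0.09. The quinone reductase Nqo1 and the glucuronosyltransferase Ugt1a6a, classic members of the AHR battery, and Gsta2 of the same list were singled out after their values were seen. Nqo1 averaged 0.18 ± 0.17, from 3.51 FPKM in LD-PM2.5 replicate 1 to 6.79 in LL-PM2.5 replicate 1. Ugt1a6a averaged -0.03 ± 0.12, and its counts are uncertain because genes of its locus share exons. Gsta2 read 52.08 and 51.11 FPKM under LL-FA and 85.21 and 70.35 under LL-PM2.5, the 2 highest values. For PM2.5 it was at -0.071 ± 0.315 in light/dark and 0.615 ± 0.315 in constant light (edgeR adjusted p = 0.989). For constant light under PM2.5 it was at 1.049 ± 0.318 (edgeR adjusted p = 0.486), and DESeq2 called it there (DESeq2 adjusted p = 0.037).

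Enzymes of tryptophan breakdown, a route that yields AHR ligands, numbered 8. Of these 6 were tested, and none passed edgeR or DESeq2 in either PM2.5 comparison. Their median was -0.08 in light/dark and -0.21 in constant light, each with 2 positive and 4 negative. With single libraries left out it ran from -0.17 without LD-PM2.5 replicate 2 to -0.02 without LD-PM2.5 replicate 1 in light/dark, and was -0.09 in constant light without LL-PM2.5 replicate 2. Kyat1, which makes kynurenic acid, stood at 36.6 and 40.6 FPKM under LD-FA and 27.9 and 30.4 under LD-PM2.5. It was lower there without overlap, as were 18.7% of tested genes in FPKM. Its log2 fold change in light/dark was -0.40 ± 0.12 (SE, edgeR adjusted p = 0.427). Ido2, an enzyme of the first step, read 43.2 and 39.1 FPKM under LL-FA and 30.4 and 20.9 under LL-PM2.5, with -0.68 ± 0.26 (edgeR adjusted p = 0.989). Aadat averaged -0.27 ± 0.12 and Afmid 0.31 ± 0.21 over light.

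Heme and electron supply, on which every P450 enzyme depends, was covered by 8 genes, all tested, of which edgeR called none for PM2.5. DESeq2 called Alas1 and Por in light/dark, Alas1 in constant light and Por for the average. With no filter on low values edgeR called the same genes in both regimes, and Hmox1 and Por for the average. The all-gene counts of that fit are those given above. Alas1, the rate-limiting enzyme of heme synthesis, is described here after its values were seen. It read 42.5 and 49.9 FPKM under LD-FA, 160.0 and 191.1 under LD-PM2.5, 70.4 and 164.3 under LL-FA and 62.0 and 30.2 under LL-PM2.5. PM2.5 libraries lay above filtered air in light/dark (24.6% of tested genes did in FPKM) and below it in constant light (11.6%). The log2 fold change was 1.93 ± 0.43 (SE) in light/dark (edgeR adjusted p = 0.416, DESeq2 adjusted p = 3.3e-05) and -1.33 ± 0.43 in constant light (edgeR adjusted p = 0.989, DESeq2 adjusted p = 0.0328). The interaction was -3.26 ± 0.61 (edgeR adjusted p = 0.843, DESeq2 adjusted p = 2.74e-07), so the call depends on the tool. The median of the list was 0.13 in light/dark and 0.02 in constant light. Por, the reductase that passes electrons to P450 enzymes, read 58.4 and 43.6 FPKM under LD-FA, 67.1 and 189.1 under LD-PM2.5, 69.3 and 93.0 under LL-FA and 104.8 and 109.6 under LL-PM2.5. Both PM2.5 libraries lay above filtered air in each regime, and LD-PM2.5 replicate 2 was the highest. In FPKM, 24.6% of tested genes were higher without overlap in light/dark and 9.65% in constant light. Averaged over light Por was at 0.90 ± 0.28 (SE, edgeR adjusted p = 0.421, DESeq2 adjusted p = 0.017). Without LD-PM2.5 replicate 1, which leaves only replicate 2 in that group, Por was at 1.88 in light/dark. The heme oxygenase Hmox1 averaged 0.64 ± 0.27, Fech 0.18 ± 0.09 and Urod -0.12 ± 0.10. Without LD-PM2.5 replicate 2 the median of the list in light/dark was -0.01, and without LD-PM2.5 replicate 1 it was 0.26.

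Cyp1a2 belongs to the hepatocytes around the central vein, so 8 other pericentral genes were set beside it. All were tested and edgeR called none, with a median of -0.21 in light/dark (2 positive, 6 negative) and -0.19 in constant light (1 positive, 7 negative). Rhbg, an ammonia channel of these cells, read 7.80 and 6.01 FPKM under LD-FA, 4.25 and 4.24 under LD-PM2.5, 4.02 and 5.38 under LL-FA and 2.71 and 2.34 under LL-PM2.5. PM2.5 libraries were lower in both regimes. In FPKM, 18.7% of tested genes were lower without overlap in light/dark and 11.6% in constant light. Rhbg averaged -0.81 ± 0.15 (SE, edgeR adjusted p = 0.325), and DESeq2 called it for the average (DESeq2 adjusted p = 0.00516). With no filter edgeR called Lgr5 in light/dark and Rhbg in constant light and for the average, beside the all-gene counts of that fit given above. Lgr5, a receptor that strengthens Wnt signals, averaged -0.46 ± 0.13 and Gulo -0.16 ± 0.11. Glul, the glutamine synthetase of the cells next to the vein, stood at 357.9 and 159.5 FPKM under LL-PM2.5 against 390.4 and 335.3 under LL-FA, and averaged -0.40 ± 0.20. Its lowest library was thus the one lowest in Cyp1a2. These 4 genes are those of smallest p for the average, for which 2 of the 8 were positive and 6 negative. Cyp2e1, a P450 of the same list, read 3738 and 3160 FPKM under LD-FA and 4242 and 3902 under LD-PM2.5. Under LL-FA it stood at 4088 and 3336 and under LL-PM2.5 at 4577 and 2099, and it averaged 0.032 ± 0.195. Without LL-PM2.5 replicate 2 the pericentral median in constant light was 0.00 with 4 genes positive, and without LL-PM2.5 replicate 1 it was -0.57 with 1 positive. The median in light/dark became -0.45 with LD-PM2.5 replicate 1 left out, -0.08 with LD-PM2.5 replicate 2 left out and -0.12 with LD-FA replicate 1 left out.

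The 3 genes whose log2(FPKM + 1) followed each tested gene most closely over the 8 libraries were sought among genes of at least 5 FPKM on average. The libraries are shared by all genes and few in number, so these correlations only describe the pattern. Closest to Cyp1a2 came Mup12 (Pearson r = 0.971), Susd4 (0.966) and Slc22a7 (0.964), out of 6443 genes. Mup12, a major urinary protein gene of a family whose near-identical copies can share reads, ran from 554.0 FPKM in LD-FA replicate 1 to 16.0 in LL-PM2.5 replicate 2. Slc22a7, an organic anion carrier, ran from 42.4 to 5.06 FPKM between the same libraries. Cyp1a2 correlated with Glul at 0.919 and with Dbp at -0.791. Closest to Arnt were the stress kinase Mapk14 (0.971), Mfhas1 (0.967) and Zmiz2 (0.964), each with its highest value in LD-PM2.5 replicate 2. Closest to Ahr were the pseudogene Gm15429 (0.970), Mtmr10 (0.967) and Plpp3 (0.966), and closest to Tiparp were Cdadc1 (0.969), Cobll1 (0.958) and Acot12 (0.95). Among themselves the 4 genes correlated at 0.229 to 0.75, Ahr with Tiparp highest.

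**Figure D4:**
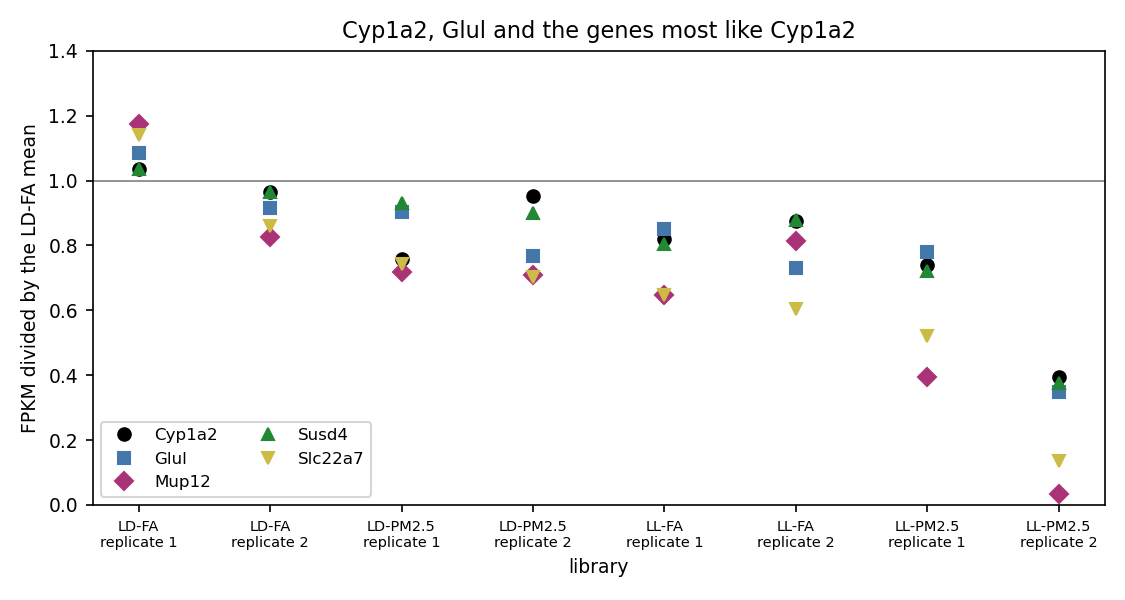
FPKM of Cyp1a2, the pericentral gene Glul and the 3 genes most like Cyp1a2 in each library, divided by the mean of the 2 LD-FA libraries. All 5 genes are lowest in LL-PM2.5 replicate 2, where Cyp1a2 is at 148.2 FPKM and Mup12 at 16.0.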

How the data were processed

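Liver RNA-seq libraries, 8 in number, were read from 1 deposited table. The submitters' processing notes name STAR, Cufflinks, Cuffdiff and the build mm10, with versions, options and annotation not given in the sources used here. Per the file headers, the authors deposited for each gene and library an estimated count of raw fragments. They also deposited FPKM, in which the authors' scaling and transcript lengths enter. Among non-zero estimates 97.4% were whole to within 0.01, and all were rounded. Genes without a valid estimate in some library (47, with 1.07% of fragments) were left out. Identifiers were matched without version to symbols, which 48051 of 48432 genes had, and entries of 1 symbol were added.

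The planned test for fragments was used: edgeR 4.0.16 in R 4.3.3 (TMM scaling, 4 group means, 4 residual degrees of freedom, two-sided), with limma 3.58.1, DESeq2 1.42.0, scipy 1.17.1, numpy 2.4.6, pandas 2.3.3 and matplotlib 3.10.9 (Python 3.11.15) for alternatives, exact tests and plots. The SE is the absolute log2 fold change over the root of F. The biological coefficient of variation was 21.4%. The method was tested on simulated data. Genes below the filter got an exact permutation test, and, added after seeing the data, a fit joined to the tested genes. Counting intervals cover counting error only.

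All 8 pathway genes are named, with up to 4 genes per list of smallest p for PM2.5 averaged over light and 3 genes of most similar pattern. Members, lists and tests were chosen with earlier results of these data known. Alternatives were median-of-ratios scaling, no filter, a filter at 5 FPKM, DESeq2, limma with a pseudocount of 1 or 0.1, a replicate block, fits of only the groups compared, and leaving out each library, or LD-FA replicate 1 with LL-FA replicate 1.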

Additional observations from a re-analysis of the deposited data

How the results depend on the processing

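The count of pathway genes called was 0 in all 6 comparisons under every alternative that kept 2 libraries in each group, the replicate block included. For PM2.5 in light/dark, median-of-ratios scaling, the filter at 5 FPKM, both limma fits and the replicate block called 0 of all tested genes. A count of 0 among 4 genes was nearly fixed in such fits and says little about stability. Fits without a library leave 1 library in a group, and their calls are not weighed here. Permutation tests that leave out 1 library cannot go below 0.0571, and without both LD-FA replicate 1 and LL-FA replicate 1 not below 0.133, so they say nothing about stability. Over the alternatives the lowest adjusted p of any of the 4 genes above the filter was 0.0946, for Arnt in light/dark with no filter on low values, a fit that called 330 genes higher and 317 lower there. DESeq2 called 109 higher and 42 lower in that comparison, none of them among the 4. Replicate numbers were shared between groups, and the labels give the numbers no meaning. Deviations of same-numbered libraries correlated positively in 5 of 6 pairs of groups, at 0.325, 0.194, 0.226, 0.252 and 0.025, and at -0.365 between LD-FA and LL-PM2.5. Since not every pair was above 0.1, the samples were not treated as paired, which does not exclude a shared source for some groups. With the replicate block Arnt in light/dark was 0.594. Depth limits Ahrr and Aldh3a1, with at most 4 fragments per library.

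Of 454 alternative values of single genes 24 changed sign, and the cause was not tested except where 1 library was left out. The interaction of Ahr was -0.128 by limma on log2(FPKM + 1) and -0.154 on log2(FPKM + 0.1). With libraries left out, Ahr ranged from -0.037 to 0.466 for PM2.5 in light/dark, from -0.384 to 0.651 in constant light and from -0.095 to 0.423 averaged. The log2 change of Ahr ranged from -0.636 to 0.112 for light in filtered air, from -0.738 to 0.306 for light in PM2.5 and from -0.578 to 0.509 for the interaction. Tiparp ranged from -0.304 to 0.047 for PM2.5 in constant light, from -0.004 to 0.252 averaged and from -0.408 to 0.115 for light in PM2.5. Arnt for light in filtered air ranged from -0.111 to 0.285, and the interaction of Cyp1a2 from -0.866 to 0.003. The FPKM difference between PM2.5 and filtered air ranged from -0.001 to 0.00747 for Ahrr and from -0.0177 to 0.0513 for Cyp1b1. Ahr turned on LL-PM2.5 replicate 1, without which it was -0.384 in constant light, and Tiparp on LD-PM2.5 replicate 2, without which its average was -0.004.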
